A study of Arabidopsis thaliana with 8 samples.

Results

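Deep low patches are isolated groups of array tiles with a very low H3K4me2 log ratio that lie outside the long low blocks of the tiling array. A tile belonged to them when the mean of its 4 centred replicate values was below -2 and its plate was one of TA01 to TA19, TA64 to TA99, TB00 to TB99 or TC00 to TC13. This rule gave 572 low tiles among the 15835 tiles with a value on these 169 plates (3.61%), out of 21296 tiles with a value in the whole series. The measured values themselves chose the tiles, so their depth is a description and was not tested. The label of the group held for its position, but not fully for the word patch, because 195 of the 309 runs of low tiles were 1 tile long.

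Chromatin immunoprecipitation (ChIP) DNA of the antibody against dimethylated lysine 4 of histone H3 (H3K4me2, IP) was compared with the input DNA of the same chromatin on arrays of Arabidopsis thaliana chromosome 4. The only plant material was whole C24 seedlings, untreated, after 10 days of growth in liquid medium. The 4 replicates I to IV used 50 µg of chromatin each, and each was hybridised to 2 arrays of opposite dye orientation. Separate cultures are not named in the labels, so the p-values below measure only the spread between these samples, which may be technical, and a tile's value is an average over the cell types of a seedling.

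H3K4me2 is set by SET-domain methyltransferases and is known in plants as a mark of genes, present on transcribed genes and on many silent ones. It is known to be scarce over transposable elements and in the heterochromatin around centromeres, where DNA methylation and H3K9me2 are found instead. What DNA the low tiles hold was not analysed here, since positions, genes and sequences of tiles were not used. Tiles are named by their ID, made of the plate (TB18) and the well (G07).

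The 2 arrays of a dye swap held the same number at all 21296 tiles with a value, so n was 4 throughout. All values are deposited log ratios minus the median of their replicate. Neither the log base nor the direction of the ratio (IP over input or the reverse) is stated in the labels, so low means below the array median and not depleted. The arrays' number limits the precision, and signal over background is unknown.

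The low tiles were unevenly spread along the plates (the plot of low tiles by plate). Plates TA01 to TA19 held 191 low tiles among 1777 (10.7%), with medians over these low tiles of -2.85, -2.91, -2.71 and -3.08 in replicates I, II, III and IV. The even-numbered plates of this stretch, described further on, held 133 of these 191, and whether their values are chromatin signal was not tested. Plates TA64 to TA99 held 188 among 3330 (5.65%), with medians of -2.55, -2.51, -2.54 and -2.48. Both parts of the TA series thus had a larger share of low tiles than the 3.61% of all searched plates. In the TB series the plates TB00 to TB49 held 134 low tiles among 4737 (2.83%), and TB50 to TB99 held 43 among 4725 (0.910%). Plates TC00 to TC13 held 16 among 1266 (1.26%). The median of all tiles was 0.16 ± 0.04 on TA01 to TA19 (SD, n = 4) and -0.01 ± 0.02 on TA64 to TA99, although TA01 to TA19 had the larger share of low tiles.

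Single plates also differed in their number of low tiles. The 20 plates with 10 low tiles or more held 305 of the 572 (53.3%), while 70 of the 169 plates had none. Of these 20 plates, 12 were among the 19 of TA01 to TA19, 5 were on TA64 to TA99 and 3 on TB00 to TB49. Plates TB50 to TB99 and TC00 to TC13 included none of them. The plates with most were TA95 and TB18 with 22 each, followed by TA04 and TA84 with 20 each. These plates differed in how the low tiles lay on them. On TB18 they fell into 3 runs at the end of the plate, and on TA84 15 of the 20 formed 1 run. On TA95 they fell into 12 runs of at most 4 tiles, and on TA04 into 13 runs of at most 3.

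**Figure D1:**
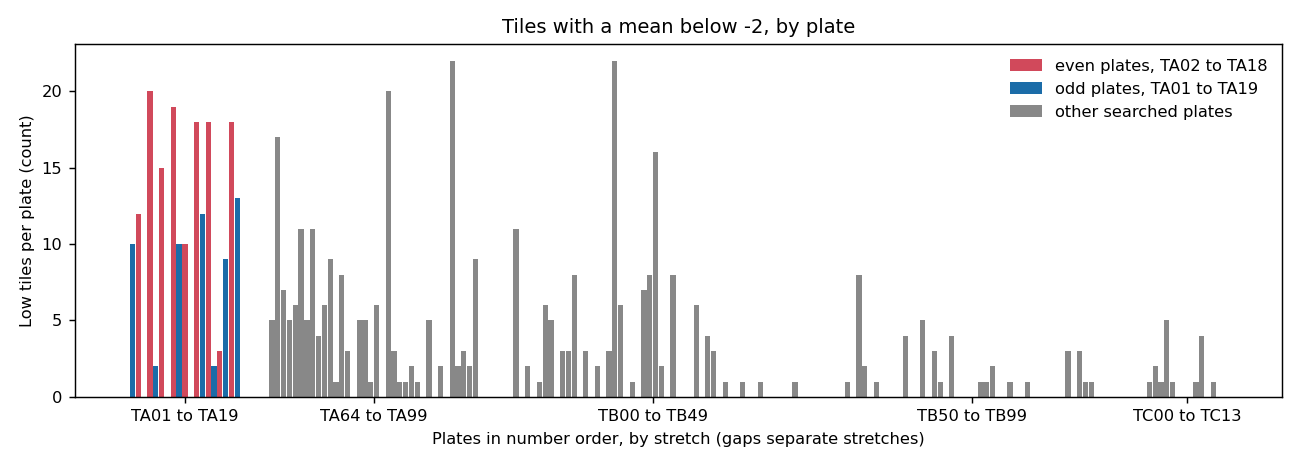
Low tiles (mean of 4 replicates below -2) per plate, with plates in number order and gaps between the 5 stretches. Even-numbered plates from TA02 to TA18 are red, odd-numbered plates from TA01 to TA19 blue and all others grey. Plates TA95 and TB18 reach 22 low tiles each, and the red bars stand above most of the blue ones.

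Most patches were short. Of 309 patches, 195 (63.1%) were 1 tile long and held 34.1% of the low tiles, 57 were 2 tiles long, and 36 were 3 or 4 tiles long. The remaining 21 patches had 5 tiles or more and held 140 tiles (24.5%). The longest patches were the deepest, without an even order below them. The median patch level was -2.88 ± 0.06 (SD, n = 4) for patches of 5 tiles or more, -2.64 ± 0.02 for 3 or 4 tiles, -2.67 ± 0.09 for 2 tiles and -2.43 ± 0.06 for 1 tile. In the 57 patches of 3 tiles or more, the 149 inner tiles had a median of -2.89 ± 0.04 and the 114 edge tiles one of -2.58 ± 0.03, a difference of -0.31 ± 0.06. These levels were bounded at -2 by the rule and are given without a test.

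Patches were unevenly spaced. The median gap from a patch to the next was 13 tiles, counting wells without a value. Of 305 gaps, 97 were of 5 tiles or fewer, of which 34 were a lone tile or a lone well without a value. Whether patches lay closer together than randomly placed runs would was not tested. Spacing widened along the stretches in the same order as the share of low tiles fell within each series. The median gap was 6 tiles on TA01 to TA19 and 15.5 on TA64 to TA99, then 37.5 on TB00 to TB49 and 63 on TB50 to TB99. The longest stretch without a low tile had 698 tiles and lay in the TB series.

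The longest patch ran over 15 tiles from TA84B01 to TA84C03. Its level in I, II, III and IV was -2.97, -2.71, -3.08 and -2.69, and no tile of it had a mean above -2.16. Both sides changed within a few tiles: TA84A10, 3 tiles before it, was at 2.58, with TA84A11 and TA84A12 between them at -1.02 and -1.77. After it TA84C04 was at -1.13 and TA84C05 at 0.39. The tiles beyond were below 0 again: TA84C06 was at -0.34, and TA84C07 was itself low at -2.12. From TA84C08 to TA84D03 the means lay between -0.30 and -1.87, and the median of plate TA84 was -0.83.

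The second patch ran over 13 tiles from TB18G07 to TB18H07, at -3.37, -2.86, -3.34 and -2.92 in I to IV. It lay between other low runs, with TB18F12 to TB18G04 (5 tiles, -2.82) before it and TB18H09 to TB19A03 (7 tiles, -2.60) after it. The tiles that parted the 3 runs were unlike. TB18G05, the tile with a value before the patch, stood at 1.20, 0.67, 0.94 and 1.54 in I to IV, and the next tile had no value. TB18H08, on the other side, was at -1.31, -1.39, -1.44 and -1.52 in I to IV. The last run went on over the boundary between plates TB18 and TB19, and was followed by TB19A04 at -1.02 and TB19A05 at 0.64.

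Of the 6 next patches in length, 1 had 8 tiles and 5 had 7, and of those with 7 tiles the 3 with the lowest means are described. The other two were TB18H09 to TB19A03, given above, and TA65D07 to TA65E01 at -2.52. TA08H11 to TA09A06 (8 tiles) also crossed a plate boundary, and was at -2.85, -2.77, -2.69 and -2.87 in I to IV. TA69E09 to TA69F03 (7 tiles) was at -3.30, -3.12, -3.001 and -3.16. TA19D05 to TA19D11 (7 tiles) was at -3.12, -2.72, -3.13 and -2.73, and its flanks of -2.19 and -1.85 were themselves low. By contrast TA14G05 to TA14G11 (7 tiles), at -2.70, -2.97, -2.47 and -3.21, lay between tiles at -0.11 and -0.26. TA08 and TA14 are among the even-numbered plates of TA01 to TA19, which are described further on. The order of the replicates was not the same in each: II and IV were the higher ones at TA84, TB18 and TA19, and the lower ones at TA14.

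**Figure D2:**
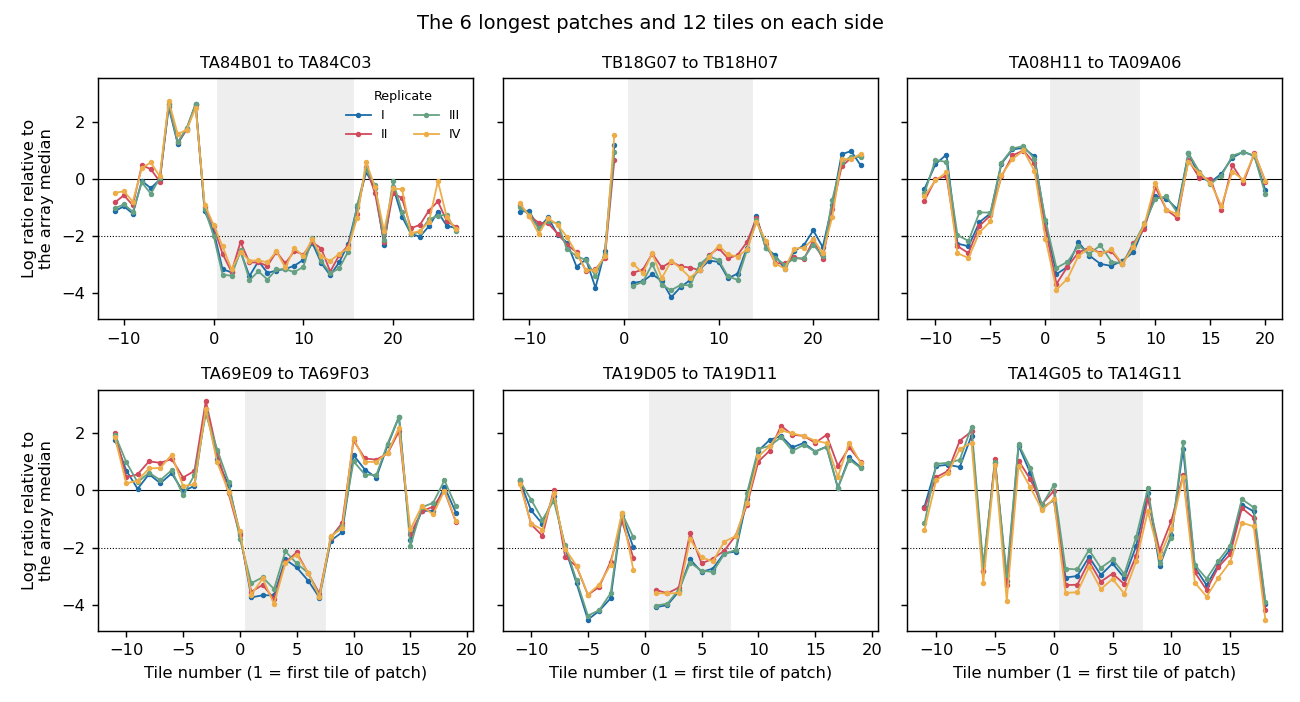
Log ratio relative to the array median for each tile of the 6 longest patches (grey background, ties settled by the lower mean) and 12 tiles on each side, with a line for each replicate. Solid and dotted lines mark 0 and -2. The TA84 patch is flat over 15 tiles, and the TA14 patch has more low tiles near it on both sides, such as TA14F12 at -3.34.

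The deepest tiles were not in the longest patches. TA99C10, the lowest of all, was a patch of 1 tile at -4.55, -4.25, -4.98 and -4.20 in I to IV. Its nearest measured tiles were at -0.50 and 0.73. Just beyond the latter, TA99C12, TA99D01 and TA99D02 were low again, with means of -3.62, -2.36 and -2.93. TA06C04 (-4.19, -4.59, -4.14 and -4.38) and TA06C05 (-4.07, -4.41, -4.18 and -4.56) formed a patch of 2 between -1.94 and 0.13. TB32C07 (-4.57, -3.94, -4.64 and -4.07) lay inside a patch of 6. TA04A08 (-4.25, -4.40, -3.90 and -4.59) was a lone tile between -1.22 and -0.67. The mean of the same values chose these 5 tiles, and the replicates ranked them differently. TA04 and TA06 are also among the even-numbered plates of TA01 to TA19, where whether the low values are chromatin signal was not tested.

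Lone tiles could stand in the middle of high ones. The largest step to the 2 neighbours was that of TA95E02, at -3.21, -3.34, -3.11 and -3.35 in I to IV, with TA95E01 at 0.76 before it and TA95E03 at 2.99 after it. The step was 5.12 in log ratio units. The next 5 were TA10F03 (mean -3.68 ± 0.29, step 4.95), TA74C09 (-3.60 ± 0.23, 4.83), TA02F04 (-4.00 ± 0.31, 4.83), TB56E09 (-3.35 ± 0.15, 4.68) and TA04F12 (-3.40 ± 0.27, 4.64). Of these 6, 3 were on even-numbered plates between TA02 and TA10. Of all 195 patches of 1 tile, 46 were on the even-numbered plates TA02 to TA18, so nothing is read from 3 of 6.

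The tiles next to a patch were on average below the median but well above the patch. The median flank level, taken over the nearest tile with a value on each side, was -0.65, -0.76, -0.61 and -0.74 in I to IV, or -0.69 ± 0.07 (SD, n = 4). The median step up from patch to flank was 1.83 ± 0.04. A patch ends at a tile not below -2 or at a well without a value. The direction of this step was thus largely set by the rule, and only its size is described. In 170 of 309 patches both sides were below 0, and in 37 both were above it. The median was -0.43 at a distance of 2 tiles and -0.08 ± 0.02 at 5 tiles, then -0.32 ± 0.04 at 7 and -0.38 ± 0.03 at 8, and 0.01 ± 0.03 at 12. The median of all tiles on the searched plates was 0.35 ± 0.02, and the surroundings lay below it at every distance up to 12 tiles. That median differed by stretch, from -0.01 on TA64 to TA99 to 0.56 on TB50 to TB99. Of the 309 patches, 105 lay on TA01 to TA19 and 105 on TA64 to TA99. The surroundings were not compared with the median of their own stretch. Patches of 5 tiles or more had lower nearest tiles, with a median of -1.14 ± 0.15, than patches of 1 tile, with -0.66 ± 0.04. Further out, the median around patches of 5 tiles or more went up and down. It was 0.09 ± 0.15 at 3 tiles, -0.75 ± 0.12 at 7 and -0.56 ± 0.06 at 12, where 40 values were read. Around patches of 1 tile it was -0.22 ± 0.03, -0.16 ± 0.04 and 0.11 ± 0.02 at these distances.

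Low tiles inside the low blocks had another setting. On the plates TA21 to TA30, TA37 to TA51 and TC17 to TC30, 1891 of 3266 tiles were below -2 (57.9%), in 564 runs. The low tiles had a median of -2.60 and a lowest value of -4.49 outside the blocks, against -2.70 and -5.42 inside them. Both sets were cut at -2 by the rule, so nothing is read from these medians. Runs of 1 tile made up 63.1% of the runs outside and 38.7% inside, and the longest runs had 15 and 32 tiles. The median flank level was -0.69 ± 0.07 outside and -1.54 ± 0.13 inside. The difference of 0.84 ± 0.20 had a positive sign in 4 of 4 (exact permutation test by sign flips, two-sided, p = 0.125, the least that 4 replicates can give). At a distance of 12 tiles the contrast was larger, with medians of 0.01 ± 0.03 outside and -2.23 ± 0.12 inside. The block plates had been chosen for their low values in these data, so their flank level is not independent of that choice.

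**Figure D3:**
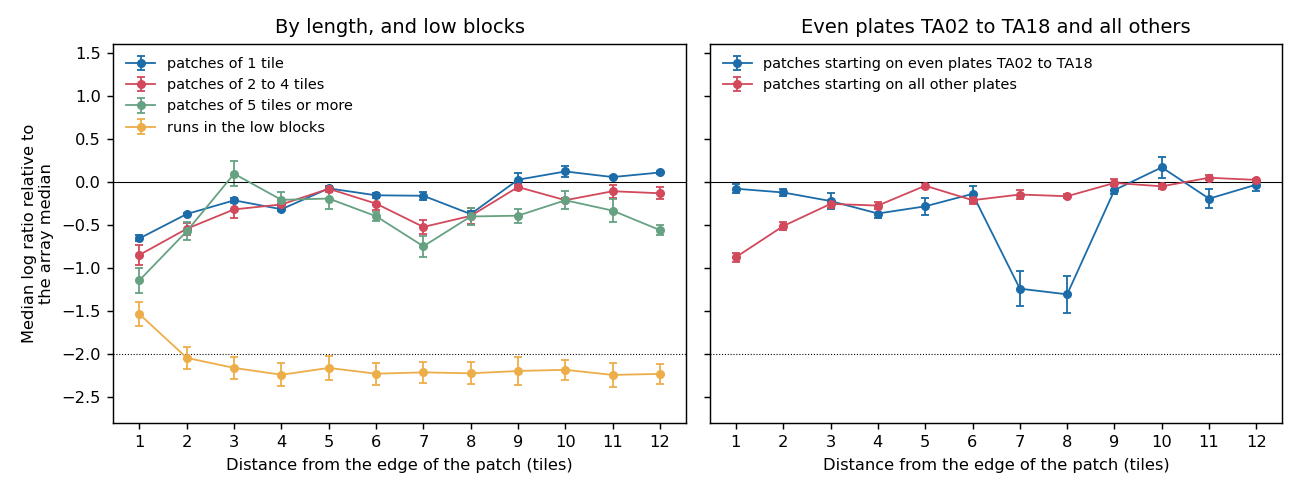
Median log ratio relative to the array median (vertical axis) by distance from the edge of a patch in tiles (horizontal axis); points and bars are the mean and SD over 4 replicates. The left panel shows patches by length and the low runs of the blocks, which stay near -2.2. The right panel sets patches on the even plates TA02 to TA18, with a dip to -1.31 at 8 tiles, beside all other patches.

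The first stretch, TA01 to TA19, had more low tiles on its even-numbered than on its odd-numbered plates, a pattern noticed after the values had been seen. The 9 even-numbered plates held 12, 20, 15, 19, 10, 18, 18, 3 and 18 low tiles from TA02 to TA18. The 10 odd-numbered plates held 10, 0, 2, 0, 10, 0, 12, 2, 9 and 13 from TA01 to TA19. The even plates thus had 133 low tiles among 834 (15.9%) and the odd plates 58 among 943 (6.15%). In each replicate alone, 15.7% ± 1.46 of the even-plate tiles were below -2 (SD, n = 4), against 5.83% ± 0.44 of the odd-plate tiles, and the even plates had the larger share in 4 of 4. The excess was in the deep tail: 77 tiles of the even plates had a mean below -3, against 10 of the odd plates. The other stretches had no such excess on even plates. TA64 to TA99 had 5.003% low tiles on even and 6.27% on odd plates, TB00 to TB49 had 2.55% and 3.11%, TB50 to TB99 had 0.683% and 1.13%, and TC00 to TC13 had 0.602% and 1.99%.

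On the even plates of the first stretch the same wells were low again and again (the map of low wells). Well G08 was low on 7 of the 9 even plates. Its values in I, II, III and IV were -3.31, -3.58, -3.17 and -3.87 on TA02, -2.24, -2.36, -2.10 and -2.73 on TA04, and -2.99, -3.29, -2.96 and -3.54 on TA06. On TA08 it stood at -2.59, on TA10 at -3.53, on TA12 at -2.31 and on TA14 at -3.08, but on TA16 at 0.19 and on TA18 at 1.61. Well F12 was low on 6 even plates, and D04, F03, G07, H04, H10 and H12 on 5 each. In all, 19 wells were low on 3 even plates or more and held 80 of the 133 low tiles (60.2%). No well was low on more than 2 odd plates. The larger share of low tiles on the even plates (15.9% against 6.15%) by itself raises such counts of repeated wells. The number of wells to be had from these shares alone was not computed. Of these 19 wells, 17 were in the columns 3, 4, 7, 8, 11 and 12. These are 6 of the 12 columns of a plate, named after their values were seen, and they held 88 of the 133 low tiles of the even plates (66.2%) and 25 of the 58 of the odd plates (43.1%). The columns did not separate cleanly: column 7 held 8 low tiles of the even plates, and column 10, not among the 6, held 11.

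The recurrence was read on plates that had not chosen the wells. For each even plate in turn, the wells low on at least 3 of the other 8 even plates were taken, and their level on the plate left out was compared with that of its other wells. Over the 9 plates, 59 of 135 such tiles were low (43.7%), against 74 of 699 others (10.6%). Their median was -1.65 ± 0.27 (SD, n = 4), against -0.02 ± 0.06 in the other wells. The difference of -1.64 ± 0.21 was negative in 4 of 4 (exact permutation test by sign flips, two-sided, p = 0.125). It was not shared by every plate. The difference ran from -3.64 ± 0.31 on TA04 to -1.49 ± 0.26 on TA12 over the 6 plates TA02 to TA12. It was 0.13 ± 0.16 on TA14 and -0.02 ± 0.17 on TA16, and 1.37 ± 0.47 on TA18. On TA02 to TA12 alone, a choice made after these differences were seen, the pooled difference was -2.53, so nothing is read from its size. In share of low tiles, such wells had 35.3% on TA14, against 15.8% in its other wells. On TA16 they had 10.5% against 1.35%, and on TA18 11.8% against 22.2%. The 19 wells did not stand apart on the odd plates TA01 to TA19, where 5.43% of their tiles and 6.32% of the others were low.

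The distance between low tiles on these plates followed the same layout. Around patches that started on an even plate, the median level was -0.08 at 1 tile, then -1.24 at 7 tiles and -1.31 at 8 tiles, and -0.10 at 9 tiles. Around all other patches it was -0.88 at 1 tile, -0.15 at 7 and -0.17 at 8. A low tile's well was also low 2 plates on in 47 of 103 cases on the even plates (45.6%), where 16.3% of all tiles were low. On the odd plates this was so in 1 of 45 cases (2.22%, with 4.25% of all tiles low).

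**Figure D4:**
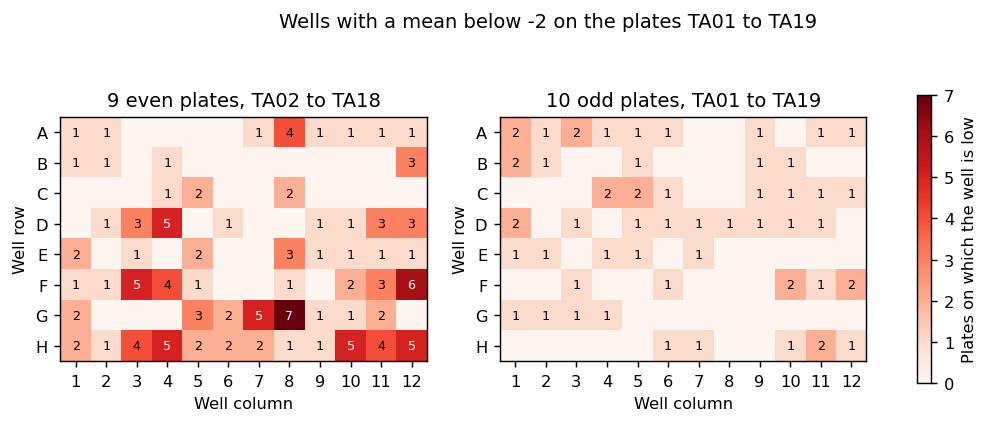
Number of plates on which each well (rows A to H, columns 1 to 12) had a mean below -2, over the 9 even plates TA02 to TA18 and over the 10 odd plates TA01 to TA19. Well G08 is low on 7 even plates, and no well is low on more than 2 odd plates.

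The tiles next to a patch were higher on the even plates, while further away the order varied with distance. The median flank level was -0.07, -0.19, 0.10 and -0.39 in I to IV for patches of the even plates. For all other patches it was -0.76, -0.81, -0.77 and -0.81. The difference in flank level of 0.65 ± 0.18 was positive in 4 of 4 (exact permutation test by sign flips, two-sided, p = 0.125). At 2 tiles the medians were -0.12 ± 0.04 on the even plates and -0.52 ± 0.05 for all other patches. At 5 tiles the order was turned, with -0.29 ± 0.10 and -0.05 ± 0.03. The median of all tiles was -0.14 on the even and 0.38 on the odd plates of TA01 to TA19. Both sides were above 0 in 23 of 78 patches of the even plates (29.5%) and in 14 of the other 231 (6.06%). The step from patch to flank was 2.84 ± 0.15 and 1.67 ± 0.04. Adjacent tiles were less alike on the even plates, with a Pearson's r over 798 pairs of 0.46 ± 0.01 (SD over 4 replicates), than on the odd plates, with 0.66 ± 0.01 over 916 pairs. This r is a description, since adjacent tiles share a plate. A listed tile without a value lay next to 20 of the 133 low tiles of the even plates (15.0%), and next to 17 of the other 439 low tiles (3.87%). The share was 3.43% for the 15263 searched tiles that were not low. It was not taken for the even-plate tiles that were not low. Whether the low values of the even plates come from the chromatin or from the plates and wells the tiles were spotted from cannot be told apart here, because the ID gives both the well and the order of tiles. These plates hold 133 of the 572 low tiles (23.3%), and without them 439 low tiles in 233 patches remained, with 64.4% of the patches 1 tile long.

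In single replicates the low tiles did not all pass the threshold. All 572 low tiles had 4 of 4 values below 0, and by limma's moderated test over all tiles 572 of 572 were below the array median at a Benjamini-Hochberg adjusted p of 0.05. On the searched plates 30.2% of all tiles passed in that direction, and 42.3% in the whole series. The rule used the same values, so nothing is read from these counts. The threshold of -2 was passed in all 4 replicates by 422 low tiles (73.8%), which are 2.66% of the searched tiles, in 3 by 75, in 2 by 71 and in 1 by 4. The replicate SD of a low tile had a median of 0.24, against 0.21 for the other tiles of the searched plates. Among the low tiles it was 0.28 for the 133 of the even plates TA02 to TA18 and 0.21 for the 439 others.

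Low tiles chosen without a replicate could be read in it. Of the 573 tiles chosen on II, III and IV, 499 were below -2 in I (87.1%), with a median there of -2.60. The share was 91.4% when II was read, 82.8% for III and 88.0% for IV, and every tile so chosen was below 0 in the replicate left out. The titles of replicates I and II share numbers whose meaning is not stated, and so do those of III and IV. The values paired otherwise: over the low tiles Pearson's r was 0.93 for I with III and 0.91 for II with IV, against 0.77 for I with II and 0.71 for III with IV, as a description. Of the 579 tiles chosen on I and II, 91.4% were below -2 in the mean of III and IV. Of the 557 chosen on III and IV, 95.0% were below -2 in the mean of I and II. The shares were lower across the other grouping: 86.3% of the 555 tiles chosen on I and III were below -2 in II and IV, and 78.5% of the 610 chosen on II and IV were so in I and III.

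A few tiles were low on unequal evidence. TB37H08 had the largest spread, with -2.25, -0.94, -2.67 and -3.63 in I to IV (SD 1.11). TB77B01 owed its place to 1 replicate, with -3.73 in II beside -1.69, -1.65 and -2.11 in I, III and IV (SD 0.98). TA76B11 was low in all, at -4.31 and -4.17 in I and III and -2.99 and -2.78 in II and IV (SD 0.79). Just inside the threshold lay TB78H06 (-2.20, -2.04, -1.68 and -2.09), TB95B04 (-1.33, -2.47, -1.48 and -2.72) and TA66E06 (-1.93, -1.92, -2.17 and -1.99). Just outside lay TA86B11 (-2.16, -1.64, -2.34 and -1.86), TA96H01 (-1.99, -2.03, -2.14 and -1.83) and TA67H11 (-1.94, -2.15, -1.72 and -2.17). The 439 tiles between -2 and -1.5 outnumbered the 249 between -2.5 and -2, so the threshold cuts through a smooth tail.

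How the replicates differed from each other was not used by the rule, and it set the even plates of the first stretch apart (the plot of replicate differences). Within the pairs that share numbers in their titles, the 133 low tiles of these plates had a median of -0.23 for II minus I and of -0.63 for IV minus III. Their SDs over tiles were 0.21 and 0.24. The 439 other low tiles had medians of 0.02 and -0.02, with SDs of 0.45 and 0.45. Both differences were negative in 120 of the 133 (90.2%) and in 160 of the 439 (36.4%). Tiles of the even plates that were not low had medians of -0.06 and -0.19 and SDs of 0.50 and 0.50. The ranges that held the middle 80% of the 133 tiles ran from -0.35 to -0.02 for II minus I and from -0.84 to -0.38 for IV minus III. Both ranges together held 66.9% of these tiles, 5.17% of the low tiles of the odd plates and 6.82% of the low tiles of all later stretches. Of the tiles that were not low, both ranges together held 14.3% on the even plates and 5.96% on all searched plates. The ranges were taken from the even-plate tiles, so only the other shares are informative.

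**Figure D5:**
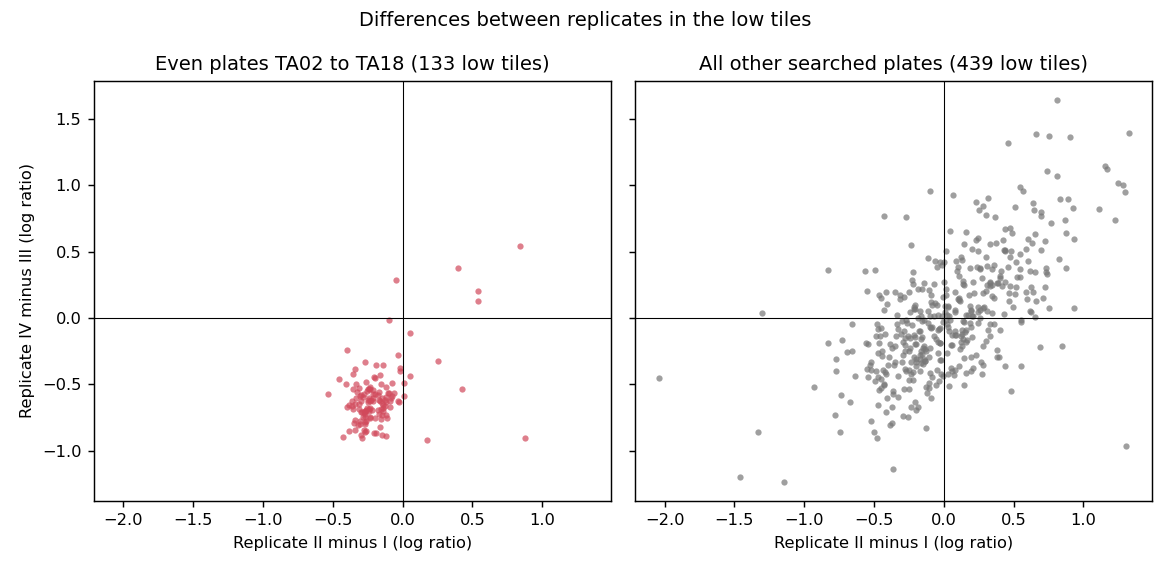
Replicate IV minus III against replicate II minus I for each low tile, in log ratio units, for the 133 low tiles of the even plates TA02 to TA18 (left) and the 439 of all other searched plates (right). The tiles of the even plates form a tight cloud with both differences below 0, and the others spread along the diagonal.

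The last or first low tile towards each low block was also read. TA19D11, the last low tile before the block that starts at TA21, was at -2.20, -2.11, -2.23 and -1.80 in I to IV, but deeper tiles lay on the same plate, such as TA19C11 with a mean of -4.05 and TA19D05 with one of -3.80. TA64C01, the first low tile from TA64 on, was at -2.17, -2.13, -2.46 and -1.81, between tiles at -1.88 and -1.73. TC11G02, the last low tile before the block that starts at TC17, was at -2.10, -2.27, -2.01 and -2.29, between tiles at -1.57 and -1.72. TA64C01 and TC11G02 were the nearest of their stretches but lay several plates from a block.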

How the data were processed

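The authors' deposited table gives 1 log ratio per feature and array for 8 two-channel arrays of 4 dye swaps. The labels name no software, background correction, normalization, log base or direction for it, and its 39 control features had no value. The deposited medians were -0.79 (I), -0.46 (II), -0.89 (III) and -0.35 (IV). The 2 identical arrays of a swap were counted as 1 replicate, and each replicate's median over tiles was subtracted, without loess or quantile steps. Tiles were ordered by plate number and along the rows of a plate, and a patch is a run of adjacent low tiles, broken by any well without a value. The ID numbering is taken as an order: adjacent tiles on the searched plates had a Pearson's r of 0.59 ± 0.02 along rows and 0.14 ± 0.01 down columns (SD over 4 replicates).

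For each tile, limma 3.58.1 (R 4.3.3) tested the mean of the 4 values against 0. P-values were adjusted over 21296 tiles by Benjamini-Hochberg, with 0.05 as the limit. Single values over replicates were tested by exact sign flips, which count the replicates as independent. Since I resembled III and II resembled IV, these p-values and the SDs over n = 4 may be too small, and with 2 independent pairs p could not fall below 0.5. The limma step, run finding and sign flips were tested on simulated data. Other steps used Python 3.11.15, numpy 2.4.6 and pandas 2.3.3.

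The tiles and lists were chosen with earlier results of these data known. Named are the 5 lowest tiles, 6 longest patches (ties by the lower mean), 6 lone tiles with the largest step, 3 plates with most low tiles (4, with a tie), 3 tiles with the largest SD, 3 values on each side of the threshold and the low tile nearest to each block. The 8 wells and 6 columns named, the tiles of TA84, TB18, TA14 and TA99 beside patches, TA65D07 to TA65E01, TA19C11 and TA19D05 were chosen after their values were seen.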

Additional observations from a re-analysis of the deposited data

How the results depend on the processing

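Settings that move the zero or the threshold changed the counts. Centring on the mode gave 1211 low tiles in 661 patches and no centring 1200 in 657, against 572 in 309, with 64.8% lone-tile patches uncentred. Centring on the searched plates gave 469 patches (67.2% of 1 tile). A threshold of -1.5 gave 1011 tiles in 569 patches (66.8%) and one of -2.5 gave 323 in 193 (65.8%). The low share of the odd plates TA01 to TA19 was 9.33% at -1.5, 2.76% at -2.5, 10.7% on the mode and 10.5% uncentred, and that of the even plates exceeded it in each (12.1% to 22.8%). Read down columns, the tiles formed 511 patches (89.2% of 1 tile) and the flank level turned to 0.042. Joining across 1 tile gave 58.9%. The flank level was -0.57 over 2 tiles a side, -0.82 for patches of 2 tiles or more, and -0.80 without the even plates TA02 to TA18, a setting chosen after seeing the data that left 439 low tiles. The cause of these shifts was not tested. Leaving out each replicate gave 556 to 576 low tiles, of which 548 to 559 were among the 572. The flank difference from the blocks stayed positive in its 8 alternatives (0.73 to 1.34), and limma's count below the median was within 1.5 times the main one in its 7. No paired analysis was possible because all arrays form 1 group and there is no second group to pair it with. Averaging the similar replicates into 2 values left 8128 tiles below the median by limma, against 9009 on 4.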

Other observations

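The 19 wells that were low on 3 or more of the even plates TA02 to TA18 were also read on plates further along, as values with no explanation. Their tiles were low in 3.94% of cases on the even plates TA64 to TA98, against 5.27% in the other wells there, and in 7.78% against 5.90% on the odd plates TA65 to TA99. In the TB series the shares were 1.40% against 1.67% on even plates and 2.02% against 2.15% on odd plates. On TA20 to TA36, which include low blocks, they were 32.5% against 28.9% on even plates and 41.2% against 38.6% on odd plates.

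Over all 169 searched plates the low tiles showed little preference for a row or column of the plate. Their share ran from 2.77% in row C to 4.53% in row H, and from 2.57% in column 9 to 4.51% in column 4.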
